A study of Mus musculus with 42 samples.

Results

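The 9 genes studied here mark resting (homeostatic) microglia and were followed through the cerebellum of fasted and refed mice: Fcrls, Cx3cr1, P2ry12, Tmem119, Csf1r, C1qa, C1qb, C1qc and Aif1. They were chosen by name as a set of 9 of the 35275 genes listed in each deposited count table, and each symbol matched 1 row in both tables. The mice were male C57BL/6 animals fed ad libitum until 3 months of age and then kept for 3 months on 1 of 3 regimens: continued free feeding (AL), 16 h without food each day (IF16) or a 24 h fast every other day (EOD), and their cerebellum was taken at 6 months. A second set went through the same 3 regimens and then had free access to food for 2 months before collection at 8 months (AL-R, IF16-R and EOD-R, which the labels write with a point before the R). All groups had free access to water, and the labels name no engineered allele. RNA sequencing covered 30 libraries of whole frozen cerebellum, 5 in each of the 6 groups, and the 12 chromatin samples of the series were not analysed here. The labels do not say that each library came from a separate mouse, so the p-values below measure the spread between these libraries.

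Microglia are the resident macrophages of brain tissue. They survive on signals through the receptor Csf1r, whose ligands are Csf1 and Il34, they sense the neuronal ligand Cx3cl1 through Cx3cr1, and they read extracellular nucleotides through P2ry12. They are also the main source in the brain of C1q, the recognition molecule that starts the classical complement cascade and that is built from the chains encoded by C1qa, C1qb and C1qc. Cerebellar microglia are known to be sparser than those of the forebrain. In whole tissue, fewer microglia and less of an RNA per microglial cell cannot be told apart.

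In the positions of the deposited tables, for which the submitters' processing notes name the build mm10, the C1q chain genes lie next to each other on the minus strand of chromosome 4: C1qb at 136880129 to 136886187, C1qc at 136889804 to 136893065 and C1qa at 136895917 to 136898803. Fcrls lies on the minus strand of chromosome 3 at 87250758 to 87263738. Promoter windows of 300 bases (250 before and 50 after the RefSeq start, GRCm38.p6) were at hand for 6 of the 9 genes, and not for Tmem119, Csf1r and C1qa. Both strands were searched for GAGGAA, the core bound by the myeloid factor PU.1 (gene Spi1), and for the longer GAGGAAGT, which contains it, so that a match to the longer motif is also a match to the shorter. GAGGAA was found in 4 of the 6 windows (Fcrls, C1qb, C1qc and Aif1) and in 28.3% of all 32851 windows. GAGGAAGT was found in 1 of the 6, that of C1qc, and in 3.2% of all windows. The Fcrls stretch below is shown because this gene was called under fasting. Those of C1qb and C1qc are shown because the C1q chain genes lie side by side and varied together over the 30 libraries. Each reads 5′ to 3′ along the strand of its gene from RefSeq, with the match in capitals (in C1qc the capitals are the reverse complement of GAGGAAGT). The first is a 30-base window at chr3:87263651-87263680, the second runs from chr4:136886201-136886450 and the third from chr4:136893066-136893164, all on the minus strand.
Fcrls: caagtctgtaaaGAGGAAggacgtttgctt
C1qb: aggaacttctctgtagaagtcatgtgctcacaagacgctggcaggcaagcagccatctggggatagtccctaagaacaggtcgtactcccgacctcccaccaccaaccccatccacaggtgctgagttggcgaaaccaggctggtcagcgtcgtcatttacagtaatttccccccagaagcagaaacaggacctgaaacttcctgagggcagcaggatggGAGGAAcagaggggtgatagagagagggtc
C1qc: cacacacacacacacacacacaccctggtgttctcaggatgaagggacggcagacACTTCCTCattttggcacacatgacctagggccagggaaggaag
Counted in bases from the RefSeq start, the match began at -144 in Fcrls, -30 in C1qb and -195 in C1qc. The matches in C1qb and C1qc lie upstream of both the RefSeq start and the start in the deposited tables, while those in Fcrls and Aif1 lie inside the gene span of the deposited tables. A match describes letters and does not show binding.

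Libraries held between 26799825 and 36167435 counts. Values per library below are CPM, counts set to a common library total and scaled by TMM, a normalization that sets the bulk of genes equal, within the table of their own collection time. All 9 genes passed the filter on low counts. On the scale that allows levels to be compared between genes, the deposited FPKM (per length), the C1q chains led with medians over the 30 libraries of 25.2 for C1qa, 19.1 for C1qc and 19.0 for C1qb. Csf1r followed at a median of 6.71 FPKM, Tmem119 at 4.48, Cx3cr1 at 3.89, P2ry12 at 3.13, Aif1 at 2.05 and Fcrls at 1.32. The 2 genes at the bottom of this order rest on few reads, 63 to 198 counts per library for Fcrls and 42 to 93 for Aif1, against 664 to 1579 for C1qa. Of the labelled tissue's neurons, Purkinje and granule cell markers summed to between 4549 and 5167 CPM in the AL libraries.

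**Figure D1:**
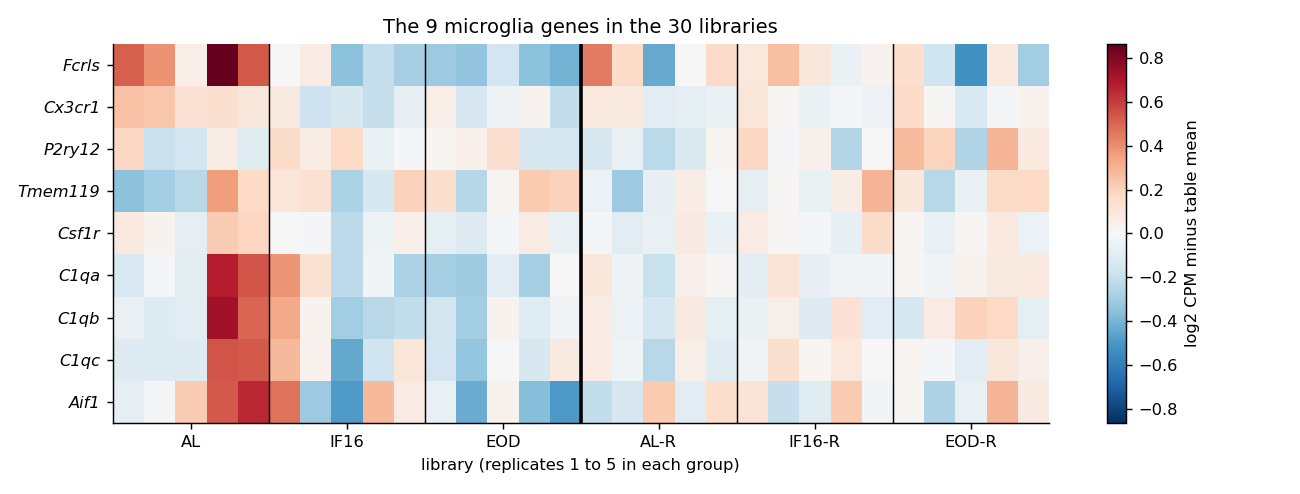
Log2 CPM of the 9 microglia genes (rows) in the 30 libraries (columns, replicates 1 to 5 within each group), each gene minus its mean over the 15 libraries of the same collection time; red is higher and blue lower. AL replicates 4 and 5 and IF16 replicate 1 are red for the C1q chains and Aif1, and all 5 AL libraries are at or above the mean for Fcrls and Cx3cr1.

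Fcrls, an Fc receptor-like scavenger receptor found on mouse microglia, was the 1 gene of the 9 called in a fasting contrast, that of EOD against AL. Its levels in the 5 AL libraries were 4.71, 4.31, 3.43, 6.00 and 4.77 CPM. In the EOD libraries they were 2.65, 2.61, 2.94, 2.57 and 2.49 CPM, so the groups did not overlap, and the EOD libraries lay close together. Under IF16 the levels were 3.31, 3.47, 2.57, 2.85 and 2.70 CPM, where the highest IF16 library passed the lowest AL library (replicate 3). Against AL, Fcrls fell by 0.81 on the log2 scale in EOD (SE 0.137, 95% interval -1.10 to -0.52; adjusted p = 0.0436, edgeR quasi-likelihood test), or to 0.571 times the AL level. The difference under IF16 was -0.64 (SE 0.136, 95% interval -0.92 to -0.35; adjusted p = 0.117) and did not pass the threshold of 0.05. Between EOD and IF16 the test found no call among any of the 16577 genes (0%). At an unadjusted p under 0.05, 291 were higher and 309 lower, and DESeq2 called 1.

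Of the 9 genes, 1 was called in EOD against AL, where 0.0664% of all genes tested were called, and 0 in IF16 against AL, where 0.0483% were. Counting genes that were lower with an unadjusted p under 0.05 gave 4 of 9 in EOD against AL (Fcrls, Cx3cr1, C1qa and Aif1; 7.40% of all genes) and 2 of 9 in IF16 against AL (Fcrls and Cx3cr1; 5.57% of all genes). Both comparisons share the AL libraries and are not independent of each other. The median difference over the 9 genes was -0.29 on the log2 scale in EOD, where that of all genes was -0.02, and -0.22 in IF16, where that of all genes was -0.01.

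The Fcrls call was close to the threshold. It was kept in 1 of 10 fits that each left out 1 AL or EOD library (without AL replicate 3, adjusted p = 0.0144) and lost in the other 9 (adjusted p between 0.0686 and 0.165), while the difference stayed between -0.90 and -0.70. Over all alternatives the adjusted p ranged from 0.000138 (DESeq2) to 0.215. For IF16 it ranged from 0.00773 (DESeq2) to 0.383, with differences between -0.73 and -0.52.

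Cx3cr1, the fractalkine receptor, was lower in every library of both fasting groups than in any AL library. Its AL levels were 16.0, 15.8, 14.6, 14.8 and 14.4 CPM. The IF16 levels were 14.2, 11.8, 12.2, 11.7 and 12.7 CPM, and the EOD levels were 14.0, 12.2, 13.04, 13.7 and 11.6 CPM. The gap was narrow, with the highest IF16 library just under the lowest AL library, but neither fasting group overlapped with AL. Groups that did not overlap, with the fasting group lower, were found for 1 of the 9 genes in IF16 against AL (0.694% of all genes) and for 2 of the 9, Cx3cr1 and Fcrls, in EOD against AL (1.53% of all genes). The difference was -0.27 in IF16 (SE 0.0771, adjusted p = 0.284, edgeR) and -0.23 in EOD (SE 0.0771, adjusted p = 0.300), and neither passed the threshold. Over the alternatives the difference stayed between -0.36 and -0.25 in IF16 and between -0.27 and -0.19 in EOD, and the adjusted p stayed above the threshold, from 0.0732 to 0.577 and from 0.162 to 0.534.

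**Figure D2:**
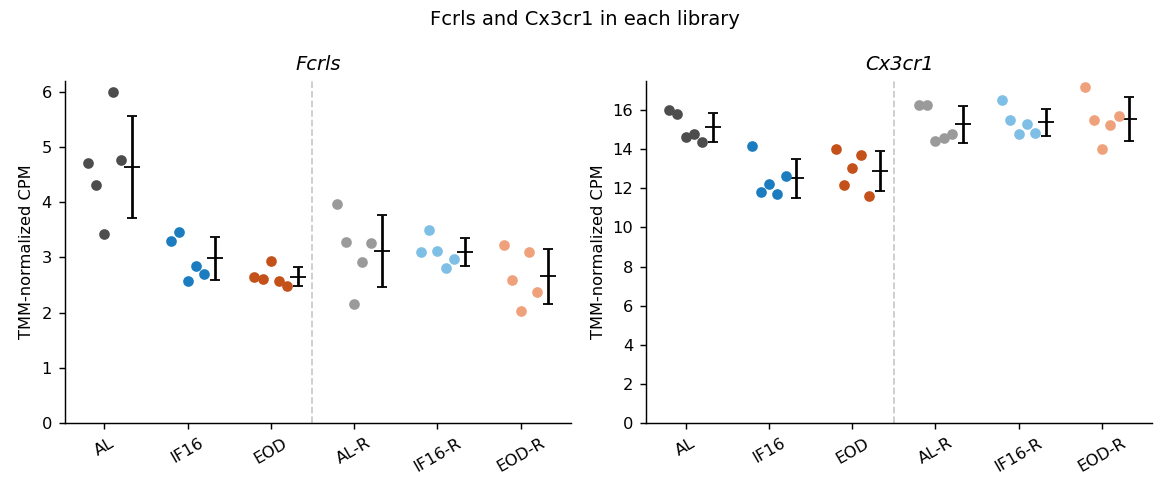
TMM-normalized CPM of Fcrls and Cx3cr1 in each library (points) by group, with mean ± SD of 5 libraries beside them; the dashed line separates collection at 6 months from collection at 8 months after refeeding. For both genes the 5 AL points lie above all 5 EOD points, and after refeeding the 3 groups overlap.

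The other surface proteins gave small differences of either sign. P2ry12, the ADP receptor that guides microglial processes, averaged 7.31 ± 0.83 CPM (SD, n = 5) with free feeding, 7.85 ± 0.56 in IF16 and 7.42 ± 0.67 in EOD. Its difference from AL was 0.10 in IF16 (95% interval -0.10 to 0.31) and 0.02 in EOD (95% interval -0.18 to 0.22), on the log2 scale. These intervals leave out a fall of the size fitted for Fcrls in the same libraries, a comparison of 2 intervals and not a test.

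Tmem119, a membrane protein used to tell microglia from blood-derived macrophages, varied widely within AL, at 8.53, 8.85, 9.22, 14.0 and 12.3 CPM. It ranged from 9.01 to 12.5 CPM in IF16 and from 9.19 to 12.7 in EOD, inside the AL range in both. Its differences were 0.06 (95% interval -0.24 to 0.37) and 0.12 (95% interval -0.18 to 0.43), not called. The value in EOD was 0.24 without AL replicate 4 and 0.06 without AL replicate 1, and that in IF16 was 0.18 and -0.0015 without the same libraries. Csf1r, the growth factor receptor that microglia need to survive, had means of 33.7 ± 2.8 CPM (AL; SD, n = 5), 30.6 ± 2.1 (IF16) and 30.8 ± 1.5 (EOD). Its differences of -0.14 (SE 0.0705, adjusted p = 0.529, edgeR) and -0.13 (SE 0.0706, adjusted p = 0.373) were alike in size under both regimens and not called.

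The C1q chains were led by the same few libraries. For C1qa the AL libraries gave 27.2, 29.7, 28.0, 47.9 and 43.6 CPM, the IF16 libraries 39.0, 32.7, 25.6, 29.4 and 24.7 and the EOD libraries 24.5, 24.1, 28.0, 24.5 and 29.9. AL replicates 4 and 5 were far above the other 3 AL libraries, which lay within the range of EOD. C1qb showed the same pattern, with 21.2, 20.5, 20.6, 36.6 and 31.4 CPM in AL, as did C1qc, with 22.6, 22.6, 22.5, 35.4 and 35.2. IF16 replicate 1 was the highest of its group for all 3 chains, at 27.8 CPM for C1qb and 29.6 for C1qc.

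Against AL, the chains differed in EOD by -0.43 for C1qa (SE 0.162, adjusted p = 0.317, edgeR), -0.34 for C1qb (SE 0.163, adjusted p = 0.347) and -0.29 for C1qc (SE 0.157, adjusted p = 0.373). In IF16 the differences were -0.22, -0.29 and -0.20, with adjusted p between 0.553 and 0.657. None was called, and the groups overlapped for each chain. Over the 30 libraries the ratio of FPKM of C1qa to C1qb ran from 1.18 to 1.64 (median 1.37), that of C1qa to C1qc from 1.09 to 1.65 (median 1.34) and that of C1qb to C1qc from 0.806 to 1.20 (median 0.998).

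Aif1 encodes Iba1, the actin-binding protein stained to count microglia. Its AL levels were 1.79, 1.87, 2.20, 2.73 and 2.98 CPM. The IF16 levels were 2.61, 1.52, 1.35, 2.30 and 1.98 CPM, and those of EOD 1.81, 1.40, 1.93, 1.47 and 1.34. The same AL replicates 4 and 5 and IF16 replicate 1 were the highest of their groups. The differences of -0.24 in IF16 (SE 0.195, adjusted p = 0.662, edgeR) and -0.54 in EOD (SE 0.199, adjusted p = 0.315) were not called.

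**Figure D3:**
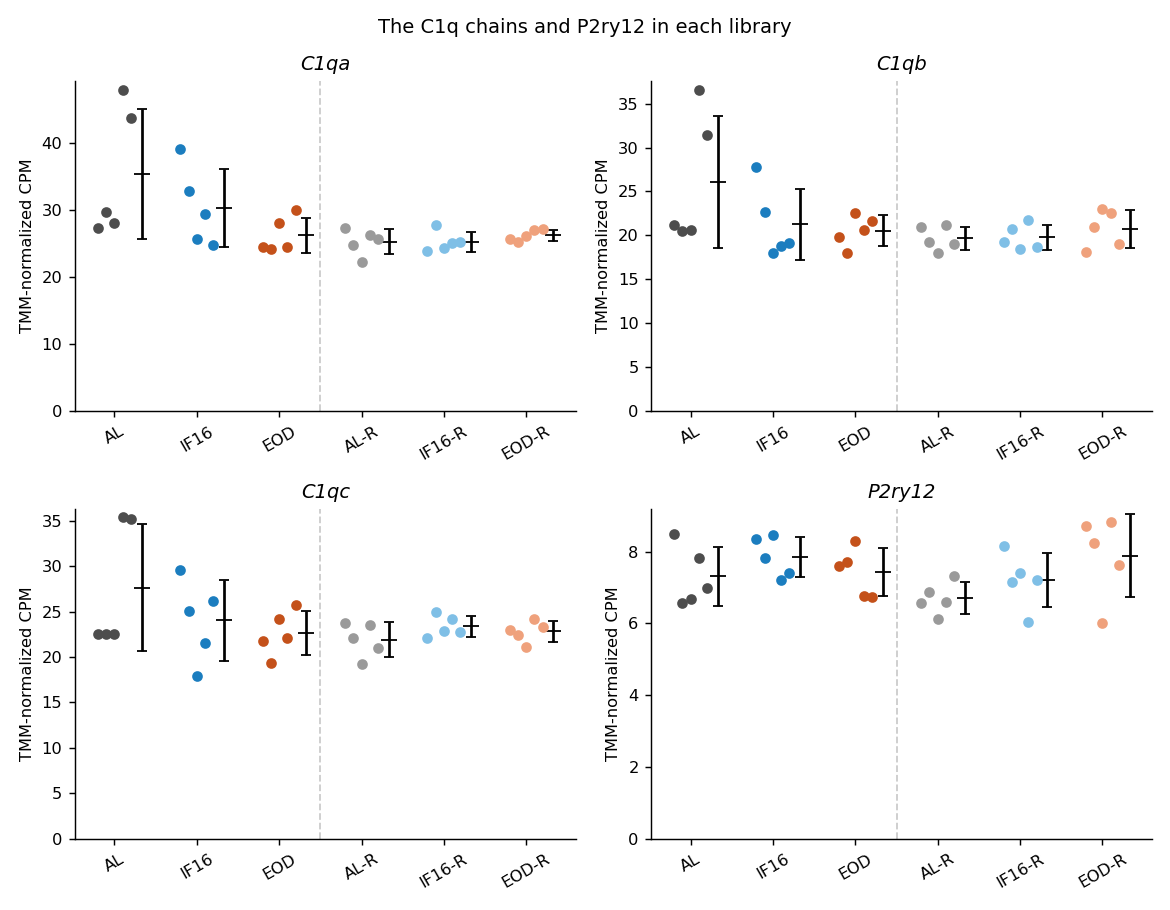
TMM-normalized CPM of C1qa, C1qb, C1qc and P2ry12 in each library (points in the order of replicates 1 to 5) by group, with mean ± SD of 5 libraries beside them; the dashed line separates the collections at 6 and 8 months. AL replicates 4 and 5 stand above the other AL libraries for the C1q chains (47.9 and 43.6 CPM for C1qa) and not for P2ry12.

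Those 3 libraries also stood apart in a property of all genes. For each library the slope of log2 CPM (minus the mean over the libraries of its table) on log2 gene length was computed over all tested genes, here called the length gradient; a negative gradient means that short genes read high. AL replicates 4 and 5 and IF16 replicate 1 had the lowest gradients, at -0.158, -0.106 and -0.114, and the other 12 libraries taken at 6 months lay between -0.030 and 0.139. EOD replicate 4 stood apart at the high end, at 0.139, with IF16 replicate 3 next at 0.064. The C1q genes and Aif1 are the shortest of the 9 in the deposited tables, at 1040 (C1qa), 1088 (C1qb), 1203 (C1qc) and 875 bases (Aif1), while Fcrls has 2273, Cx3cr1 3729 and Csf1r 4701.

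Over the 15 libraries taken at 6 months, log2 CPM of C1qa followed the gradient with Pearson r = -0.931 (permutation p = 1e-05, the smallest the permutations can give; adjusted p = 0.00018 over the 18 relations computed) and Spearman rho = -0.879 (permutation p = 2e-05, adjusted p = 0.00036). The 2 libraries farthest from the median gradient were AL replicate 4 (-0.158) and EOD replicate 4 (0.139), 1 at each end. With these 2 left out, r was -0.931 again. C1qb gave r = -0.878, C1qc -0.843 and Aif1 -0.706, with adjusted permutation p of 0.00063, 0.0011 and 0.013, and rho of -0.807, -0.782 and -0.589 with adjusted permutation p of 0.0048, 0.0057 and 0.1. Fcrls gave r = -0.633 (permutation p = 0.011, adjusted p = 0.041) and rho = -0.55 (permutation p = 0.037, adjusted p = 0.13), and r dropped to -0.381 without those 2 libraries, so this relation rests on them. Cx3cr1 (r = -0.202, rho = -0.114) and P2ry12 (r = -0.128, rho = 0.05) did not pass, with adjusted permutation p of 0.57 and 0.69 for r. Tmem119 (r = -0.418, rho = -0.346) and Csf1r (r = -0.496, rho = -0.289) did not pass either. Their adjusted permutation p for r was 0.31 and 0.18. Without those 2 libraries r was -0.534 for Tmem119 and -0.510 for Csf1r. These values and their permutations run across the 3 groups, so differences between groups enter them. With group means removed, r was -0.918 for C1qa, -0.872 for C1qb, -0.817 for C1qc, -0.637 for Fcrls, -0.620 for Aif1 and -0.607 for Tmem119. It was -0.394 for Csf1r, -0.189 for P2ry12 and 0.123 for Cx3cr1. On that scale Tmem119 lay beside Fcrls and Aif1. After refeeding, where gradients spanned only -0.026 to 0.042, no gene of the 9 passed (adjusted permutation p of at least 0.34 for r).

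**Figure D4:**
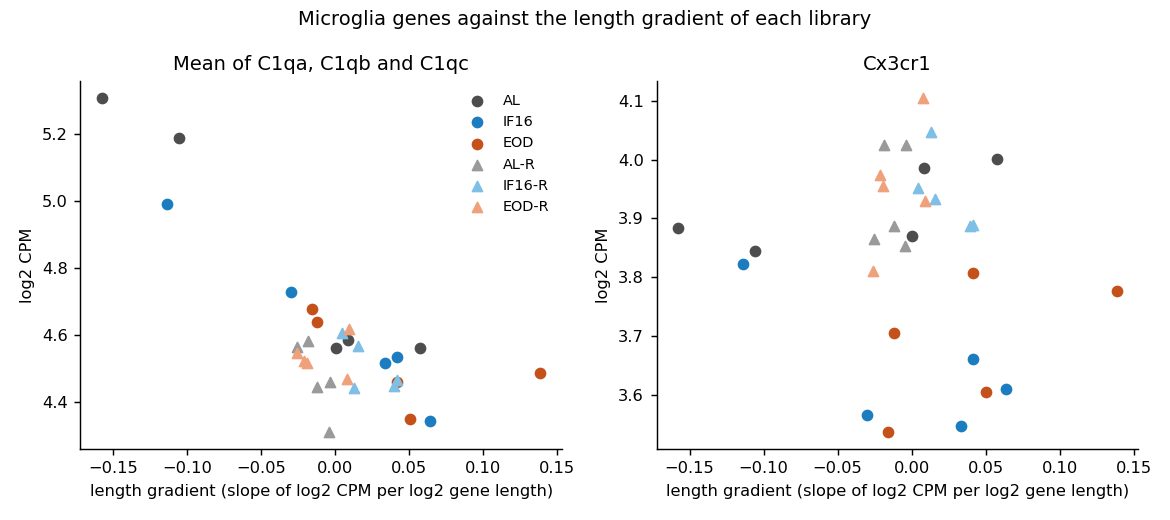
Mean log2 CPM of the C1q chains (left) and log2 CPM of Cx3cr1 (right) against the length gradient of each library, with circles for the libraries taken at 6 months and triangles for those taken after refeeding. The 3 libraries with gradients of -0.158, -0.114 and -0.106 have the highest C1q levels. For Cx3cr1 all AL circles lie above all IF16 and EOD circles. Of the AL circles only replicate 1, at 0.058, has a gradient above 0.009, so groups are hardly compared at high gradients.

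With the gradient as a covariate in the fit, the 9 genes parted. C1qa differed from AL by -0.12 in EOD and by -0.07 in IF16, and C1qb by -0.04 and -0.15. Cx3cr1 kept -0.24 in EOD and -0.28 in IF16. Tmem119 gave 0.30 in EOD (adjusted p = 0.549, edgeR) and 0.15 in IF16, further from 0 than without the covariate and not called. Fcrls gave -0.66 in EOD (adjusted p = 0.101, edgeR) and -0.57 in IF16 (adjusted p = 0.0439), so that the call moved from one regimen to the other. Leaving out the 3 libraries instead gave C1qa -0.12, Cx3cr1 -0.27 and Fcrls -0.65 (adjusted p = 0.215) in EOD, and C1qa -0.02, Cx3cr1 -0.36 and Fcrls -0.52 (adjusted p = 0.315) in IF16, an alternative chosen after seeing the data. Tmem119 was then at 0.37 in EOD (adjusted p = 0.496, edgeR) and 0.28 in IF16 (adjusted p = 0.652), and Aif1 at -0.31 and -0.13. What made the gradient differ between libraries was not tested.

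After 2 months of refeeding the groups overlapped for all 9 genes. The share of all genes that overlapped there is not given, so this count has no background. Before refeeding, groups that did not overlap, with the fasting group lower, were rare. They were found for 0.694% of all genes in IF16 against AL and 1.53% in EOD against AL. Overlap after refeeding therefore does not by itself show that a separation was lost. For Fcrls the AL-R libraries gave 3.97, 3.27, 2.15, 2.91 and 3.27 CPM, those of IF16-R 3.10, 3.50, 3.12, 2.80 and 2.98 and those of EOD-R 3.23, 2.59, 2.02, 3.09 and 2.37. For Cx3cr1 they gave 16.3, 16.3, 14.4, 14.6 and 14.8 CPM (AL-R), 16.5, 15.5, 14.8, 15.3 and 14.8 (IF16-R) and 17.2, 15.5, 14.0, 15.2 and 15.7 (EOD-R). No refed group stood apart from AL-R for either gene. Against AL-R, Fcrls differed by -0.01 in IF16-R (95% interval -0.32 to 0.30) and by -0.23 in EOD-R (95% interval -0.55 to 0.08), and Cx3cr1 by 0.01 (95% interval -0.12 to 0.14) and 0.02 (95% interval -0.10 to 0.15).

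None of the 9 genes was called in IF16-R against AL-R (0.170% of all 16444 genes tested were), in EOD-R against AL-R (0.0426%) or in EOD-R against IF16-R (0.0182%). In EOD-R against AL-R, 1 of 9 was higher with an unadjusted p under 0.05, where 4.51% of all genes were. This was P2ry12, at 8.73, 8.25, 6.01, 8.83 and 7.64 CPM in EOD-R and 6.56, 6.88, 6.13, 6.60 and 7.32 in AL-R. All EOD-R libraries but replicate 3 lay above every AL-R library, and replicate 3 was the lowest of both groups. The difference was 0.23 (SE 0.100, adjusted p = 0.535, edgeR). The C1q chains were even across the refed groups, with means for C1qa of 25.2 ± 1.9 CPM (AL-R; SD, n = 5), 25.2 ± 1.5 (IF16-R) and 26.2 ± 0.83 (EOD-R).

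Whether a fasted group's difference from its own control was the same before and after refeeding was tested as an interaction in one fit over all 30 libraries, written as the difference after refeeding minus that at 6 months. No gene of the 9 was called, for IF16 (0.0474% of 16877 genes were) or for EOD (0.0119%). At an unadjusted p under 0.05, 3 of 9 were higher for IF16 (Fcrls, Cx3cr1 and Csf1r; 3.93% of all genes) and 5 of 9 for EOD (Fcrls, Cx3cr1, C1qa, C1qb and Aif1; 5.48% of all genes). For Fcrls the interaction was 0.63 in IF16 (SE 0.203, adjusted p = 0.476, edgeR) and 0.57 in EOD (SE 0.205, adjusted p = 0.449). For Cx3cr1 it was 0.29 (SE 0.0944, adjusted p = 0.489) and 0.25 (SE 0.0945, adjusted p = 0.452). A change of the fasting difference with refeeding was therefore not shown for either gene. In that fit, mean Fcrls was 4.65 CPM in AL and 3.11 in AL-R. It was 2.99 in IF16 and 3.10 in IF16-R, and 2.66 in EOD and 2.65 in EOD-R. Mean Cx3cr1 was 15.2 CPM in AL and 15.3 in AL-R. It was 12.5 in IF16 and 15.4 in IF16-R, and 12.9 in EOD and 15.5 in EOD-R.

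The freely fed groups of both ages gave more calls than any fasting contrast. In AL-R against AL, 5 of the 9 genes fell and none rose, where 23.9% of all genes tested were called in either direction: Fcrls by 0.58 (SE 0.142, adjusted p = 0.00909, edgeR), C1qa by 0.48 (SE 0.124, adjusted p = 0.0103), C1qb by 0.41 (SE 0.129, adjusted p = 0.0253), C1qc by 0.34 (SE 0.121, adjusted p = 0.0433) and Aif1 by 0.47 (SE 0.167, adjusted p = 0.0411). Cx3cr1 differed by 0.01 (95% interval -0.13 to 0.15), P2ry12 by -0.13, Tmem119 by -0.18 and Csf1r by -0.11, none of them called. Groups that did not overlap, with AL-R lower, were found for 1 of the 9 genes, C1qa, where 4.75% of all genes showed that. On the joint scale the highest AL-R library for C1qa was at 27.3 CPM and the lowest AL library at 27.4, and on the scale of the separate tables these libraries overlapped.

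Age, collection set and the handling of the sets cannot be told apart in this contrast. Choroid plexus markers were lower along with the 5 genes: 11 of 11 had a negative sign (median -1.37, 0 called), and their summed level had a median of 47.4 CPM in AL-R against 2091 in AL. With that level as a covariate 1 of the 9 was called (Fcrls), and in a fit of the compared groups alone 0 of the 9 and 28 genes of all. The 5 genes called include the 4 shortest, and with the length gradient as a covariate 0 of the 9 were called: the difference became -0.10 for C1qa, -0.04 for C1qb, -0.02 for C1qc, -0.20 for Aif1 and -0.41 for Fcrls. Without the 3 low-gradient libraries 0 of 9 were called, without AL replicate 4 alone 1 of 9 (Fcrls; 830 genes of all), without AL replicate 5 2, and without AL-R replicate 2 or 3 2 and 3. Without AL replicate 1, 6173 genes of all were called against 4030 in the full fit.

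**Figure D5:**
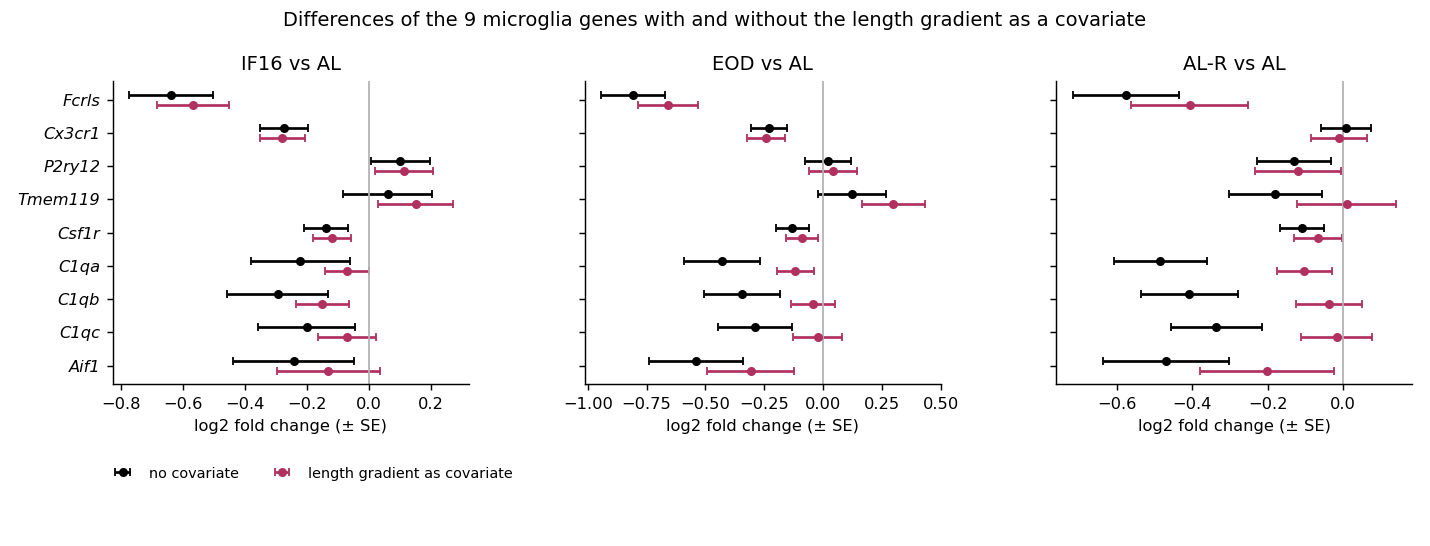
Log2 fold change ± SE of the 9 microglia genes in IF16 against AL, EOD against AL and AL-R against AL, without (black) and with (red) the length gradient as a covariate. The C1q chains move towards 0 with the covariate (C1qa in EOD from -0.43 to -0.12), while Cx3cr1 moves from -0.23 to -0.24.

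Ordered by mean level over the 6 groups on the joint scale, Fcrls ran AL, AL-R, IF16-R, IF16, EOD and EOD-R from highest to lowest, with the top mean 1.75 times the bottom. Cx3cr1 ran EOD-R, IF16-R, AL-R, AL, EOD and IF16, with a ratio of 1.24, and its step from AL to EOD was the 1 step between neighbours, among all 9 genes, where the libraries did not overlap. The top mean was AL for Csf1r, the C1q chains and Aif1, EOD for Tmem119 and IF16 for P2ry12, and the ratio of top to bottom ran from 1.10 for Csf1r to 1.45 for Aif1 among these.

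No ligand of the microglial receptors was called under fasting. Csf1, the ligand of Csf1r made by several brain cell types, had means of 24.3 ± 1.5 CPM (AL; SD, n = 5), 24.9 ± 3.6 (IF16) and 24.4 ± 1.1 (EOD), with differences of 0.03 and 0.01. Il34, the other Csf1r ligand, differed by -0.03 in IF16 and -0.19 in EOD (adjusted p = 0.935 and 0.449, edgeR). Cx3cl1, the neuronal ligand of Cx3cr1, had means of 99.3 ± 11.9 CPM (AL), 89.5 ± 3.1 (IF16) and 88.8 ± 10.1 (EOD). Its differences of -0.15 and -0.16 (adjusted p = 0.562 and 0.372, edgeR) had the sign of those of its receptor and were not called. In AL-R against AL, Cx3cl1 fell by 0.21 (adjusted p = 0.0428, edgeR), where Csf1 and Il34 were not called.

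Other genes of the microglial programme gave no call in either fasting contrast. Of 30 further homeostatic microglia genes, 0 were called in IF16 or EOD against AL. A negative sign was found for 25 in IF16 (median -0.11) and 23 in EOD (median -0.15). Of all 16577 genes tested, 8511 and 8841 had a negative sign. Both contrasts share the AL libraries, so these counts are not independent of each other. The smallest p in both contrasts belonged to Mertk, a phagocytic receptor that astrocytes also express, and its sign was positive: its means were 16.0 ± 2.1 CPM (AL), 25.1 ± 7.1 (IF16) and 25.8 ± 5.8 (EOD) (differences 0.65 and 0.69, adjusted p = 0.284 and 0.203, edgeR). Spi1, which encodes PU.1, was lower in all 5 EOD libraries than in any AL library, at 2.24 ± 0.15 CPM against 3.57 ± 0.98. Its difference of -0.67 (adjusted p = 0.206, edgeR) was not called and was the most negative of the 30 in EOD. Groups that did not overlap, with EOD lower, were found for 1.53% of all genes. How many of the 30 showed this is not given. A Spi1 value with the length gradient as a covariate is not given either, and a link to Fcrls was not tested.

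Of the genes that rise in activated microglia, 17 of the 20 listed passed the filter, and 0 were called under fasting (medians -0.06 in IF16 and -0.14 in EOD). Lpl, a lipase, had the smallest p in IF16, with 1.23 ± 0.48 CPM in AL against 0.553 ± 0.109 (difference -1.15, adjusted p = 0.165, edgeR), and Spp1, which encodes osteopontin, had it in EOD (-0.23, adjusted p = 0.309). Of the TGF-beta axis, which keeps microglia in the homeostatic state, and the receptor ligands, 0 of 13 were called. Ltbp1, which binds latent TGF-beta, had the smallest p in IF16 (-0.25, adjusted p = 0.423), and Itgb8, whose integrin activates TGF-beta, had it in EOD (0.36, adjusted p = 0.337).

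Complement genes beyond C1q gave 0 calls of 15 tested under fasting. Itgb2, the beta chain of complement receptor CR3, had the smallest p in IF16 (-0.29, adjusted p = 0.470, edgeR), and C5ar1, the receptor of C5a, had it in EOD (0.73, adjusted p = 0.285), from 0.550 ± 0.172 CPM in AL to 0.916 ± 0.253. Of 12 interferon response genes and 9 antigen presentation genes 0 were called. Their smallest p belonged to Ifi27 in IF16 (-0.34, adjusted p = 0.533) and Ifitm3 in EOD (-0.47, adjusted p = 0.325), and to Cd74 in IF16 (-0.53, adjusted p = 0.489) and H2-Eb1 in EOD (-0.59, adjusted p = 0.299).

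In AL-R against AL, where 23.9% of all genes were called, the lists held calls. Of the 30 further homeostatic genes 5 fell (Olfml3, Trem2, Selplg, Spi1 and Lgmn, by 0.13 to 0.45), and of 19 activation genes tested 6 fell (Apoe, Spp1, Cd9, Cd63, Ctsd and Fth1, by 0.23 to 0.45). Trem2, a lipid-sensing receptor, fell by 0.45 (adjusted p = 0.0488, edgeR) and Lgmn, a lysosomal protease, by 0.13 (adjusted p = 0.0399), the largest and smallest of the first set. Spp1 fell by 0.23 and Apoe by 0.45, the ends of the second; Apoe, Cd9, Cd63, Ctsd and Fth1 are also abundant in other brain cells. Cd74, the invariant chain, fell by 0.62, and Ciita, the master regulator of class II genes, rose by 0.62. Smad4 rose by 0.33 and Csmd1, a complement regulator of neurons, by 0.54.

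Markers of other macrophages were low and gave no call. The 10 markers of border macrophages (such as Mrc1, Pf4, Cd163 and Lyve1) had sums of 19.6 to 22.8 CPM for AL, 18.3 to 24.7 for IF16 and 20.6 to 25.2 for EOD, and none was at 0 throughout a group. Stab1 made up 9.68 to 14.2 CPM of these sums. Monocyte and neutrophil markers, of which 7 of 9 passed the filter, had sums of 3.71 to 17.2 CPM (AL), 1.49 to 9.44 (IF16) and 1.93 to 8.77 (EOD). Choroid plexus markers varied far more between libraries, from 46.2 to 4283 CPM with free feeding, from 40.6 to 3104 under IF16 and from 759 to 2905 under EOD. With the choroid plexus level as a covariate Fcrls differed by -0.82 in EOD (adjusted p = 0.0386, edgeR) and Cx3cr1 by -0.22, so both were about as large as without it.

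Markers of the other cerebellar cell types were also called in AL-R against AL, where 23.9% of all genes were (1936 higher and 2094 lower of 16877). Of 8 oligodendrocyte markers 4 fell (Mog, Mag, Cldn11 and Mobp, by 0.28 to 0.33), Hopx of the astrocyte list fell by 0.30 and Cldn5, a tight junction protein of endothelium, by 0.73. Pcp2, a Purkinje cell gene, rose by 0.47, the endothelial transporter Abcb1a by 0.29, and the red blood cell genes Hba-a2 by 1.35, Hbb-bt by 1.498 and Alas2 by 1.18. The choroid plexus list, with the most negative median of these lists, held no call. After refeeding, Gja1, the astrocyte gap junction gene, was higher in IF16-R (0.31, adjusted p = 0.0116, edgeR; 0.170% of all genes called) and EOD-R (0.27, adjusted p = 0.0427; 0.0426%) and Aqp4, the astrocyte water channel, in IF16-R (0.23, adjusted p = 0.0374). With the length gradient as a covariate 0 of all genes were called in either contrast, these 2 included. Their part in the values of the 9 genes was not tested.

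Within groups, the 9 genes did not vary as one. Over the 30 libraries, with group means removed, log2 CPM of C1qa and C1qb correlated at r = 0.892, C1qa and C1qc at 0.854 and C1qb and C1qc at 0.847. Tmem119 and Csf1r gave 0.711 and Fcrls and P2ry12 0.589, while Cx3cr1 gave -0.102 with C1qa and 0.402 with Fcrls. These are descriptions over libraries that share the length gradient. In the refed libraries alone, where the gradient spans less, C1qa and C1qb gave 0.452, C1qa and C1qc 0.828 and C1qb and C1qc 0.412. Fcrls and Cx3cr1 gave 0.101 at 6 months and 0.674 after refeeding.

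Among the genes most like the mean of the 9, by the same centred correlation over 30 libraries, were Gm5069 (r = 0.862), Prkcdbp, Podxl2, Clec2l, Trem2 (0.852), Gfra4, Cdipt, Arl2 and Znhit2 (0.839). In the refed libraries alone their r ran from 0.065 to 0.452. Of these, Trem2 is in the list of 30 further homeostatic microglia genes, whose median r was 0.300 against 0.020 over all 16877 genes. Oligodendrocyte markers had a median r of 0.537.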

How the data were processed

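For each library, raw read counts and FPKM values per gene were deposited by the authors, with one table of each kind per collection time. Per the submitters' processing notes, STAR 2.5, HTSeq 0.6.1 and DESeq2 2 and the build mm10 were named, without their roles; strand handling and annotation release are not given in the sources used here, so overlapping or antisense genes may share reads. FPKM served only to compare levels between genes. Every column matched a library (0 left over). Of 60 pairs of libraries of one group, none agreed within sampling noise (chi-square per degree of freedom 4.24 to 135).

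Counts were tested with edgeR 4.0.16 (R 4.3.3) by its quasi-likelihood test, after TMM normalization and filterByExpr, in one fit per table (16577 and 16444 genes tested) and one over all 30 libraries for AL-R against AL and the interactions (16877 genes). Biological variation (common BCV) was 14.3%, 8.05% and 11.7%. Adjusted p-values are Benjamini-Hochberg values over all genes tested, called under 0.05. The scripts were tested on simulated data. Alternatives were RLE normalization, no filter, a replicate block, length gradient or choroid plexus level as covariate, DESeq2 1.42.0, the compared groups alone, and each library left out. The genes and the lists were chosen with earlier results of these data known. All 9 genes and the ligands Csf1, Il34 and Cx3cl1 were named. Of each list the called genes were named, and of each immune or TGF-beta list also the gene of smallest p under each regimen. The 10 genes most like the 9 were named too, of which 1 is not reported here. Counting error also limits the precision of Fcrls and Aif1, with 42 to 198 counts per library.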

Additional observations from a re-analysis of the deposited data

How the results depend on the processing

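No difference of the 9 genes that was called changed sign under any alternative run. Numbers of all genes called moved more. In IF16 against AL (8 called), the replicate block gave 5, the length gradient covariate 62, the choroid plexus covariate 3, DESeq2 94 and the compared groups alone 5, and leaving out 1 library gave 3 to 10; of the 9 genes, 1 was called with the length gradient and 1 with DESeq2, Fcrls in both. In EOD against AL (11), RLE gave 7, the block 4, the length gradient 7, the choroid plexus 18, DESeq2 131 and leaving out the 3 low-gradient libraries 2, and leaving out 1 library 2 to 6; of the 9 genes 0 were called with the block (Fcrls -0.79, adjusted p = 0.155), the length gradient, the compared groups alone or without the 3 libraries, and 0 to 1 with 1 library left out. EOD against IF16 (0) gave 1 with no filter, the length gradient, DESeq2 and the compared groups alone. IF16-R against AL-R (28) gave 95 with the block, 0 with the length gradient, 108 with DESeq2 and 0 to 65 with 1 library left out. EOD-R against AL-R (7) gave 11 with no filter, 45 with the block, 0 with the length gradient, 16 with the choroid plexus, 90 with DESeq2, 4 with the compared groups alone and 0 to 16 with 1 library left out. EOD-R against IF16-R (3) gave 6, 40, 0, 119 and 0 with no filter, the block, the length gradient, DESeq2 and the compared groups alone, and 0 to 71 with 1 library left out. The IF16 interaction (8) gave 36 with the length gradient, 30 with DESeq2, 4 with the compared groups alone and 5 to 16 with 1 library left out, and the EOD interaction (2) gave 4 with no filter, 13 with the block, 6 with the length gradient, 12 with DESeq2 and 0 to 6 with 1 library left out. AL-R against AL (4030) gave 223 with the length gradient, 1252 with the choroid plexus, 28 with the compared groups alone, 151 without the 3 libraries and 830 to 6173 with 1 library left out; of the 9 genes (5) it gave 3 with no filter, 0 with the length gradient, 1 with the choroid plexus, 0 with the compared groups alone, 0 without the 3 libraries and 1 to 5 with 1 library left out. The cause was not tested.

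Replicate numbers are shared between groups, and no label says that a number marks a shared mouse, litter or day. Same-numbered libraries correlated in their deviations from group means between -0.534 and 0.175 in IF16 against AL, -0.281 and 0.322 in EOD against AL and -0.176 and 0.0534 in EOD against IF16, and 0 of 5 correlated best with its own number. After refeeding these were 0.0926 to 0.427 in IF16-R against AL-R (3 of 5 best with their own number), 0.0192 to 0.203 in EOD-R against AL-R (1 of 5) and -0.0545 to 0.257 in EOD-R against IF16-R (2 of 5). The libraries were not treated as paired in the main fits. With the replicate block, calls among all genes in the refed contrasts went from 28 to 95, 7 to 45 and 3 to 40. Of the 9 genes 0 were called in any of them. Whether replicate numbers mark something shared after refeeding was not tested. For Fcrls in EOD against AL the difference was -0.79 (SE 0.143) with the block and -0.81 (SE 0.137) without it. Why the Fcrls call was lost with the block was not tested. Fcrls and Aif1 rest on at most 198 counts per library, which limits their precision, and choroid plexus and length gradient differ between libraries of one group.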
